A study of Mus musculus with 4 samples.

Results

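The enzymes that place and remove DNA methylation and the polycomb mark H3K27me3 were examined in small intestine lamina propria (SI-LP) NKT cells. They were chosen by gene name and not by level, and comprised the TET dioxygenases *Tet1*, *Tet2* and *Tet3*, the DNA methyltransferases *Dnmt1*, *Dnmt3a* and *Dnmt3b*, the histone methyltransferases *Ezh1* and *Ezh2* and the histone demethylases *Kdm6a* and *Kdm6b*, which are 10 of the 25239 genes of the count table. NKT cells are T cells that recognise lipids presented by CD1d. They were sorted from the SI-LP of wild-type (WT) mice of the C57BL/6Jax strain as TCRβ+ cells binding CD1d tetramers loaded with PBS57, after exclusion of dead cells and of cells with B220, CD11b, CD11c or CD8, from mice that had been given a nanobody against ARTC2, an agent that keeps NKT cells alive during isolation. RNA-seq was made from 4 such samples. The sample titles mark replicates 3 and 4 as first and replicates 1 and 2 as second, which is read here as 2 experiments. The names of the libraries differ along the same split in their prefix and lane, so experiment, library series and lane cannot be told apart. The samples share genotype, tissue and treatment, so every difference reported between libraries is one between replicates or experiments and not between conditions. The animals' age is given for the study as a range and not for each sample.

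DNA methylation is carried by cytosines that precede a guanine. Dnmt3a and Dnmt3b place it on unmethylated DNA, Dnmt1 copies it to the new strand after replication, and the TET enzymes oxidise it, which starts its removal. Polycomb repressive complex PRC2 silences genes by methylating lysine 27 of histone H3 through Ezh1 or Ezh2, and Kdm6a and Kdm6b take this mark off. In NKT cells these enzymes are known to restrain or permit cell fate: mice whose T cells lack both Tet2 and Tet3 accumulate NKT cells of the IL-17-producing kind, loss of Ezh2 enlarges the NKT cell pool, and Kdm6a is needed for NKT cells to mature.

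The promoters of these genes themselves differ in how many CG sites they hold, the sites on which the DNMT and TET enzymes act. RefSeq promoter windows on GRCm38.p6, which run from 250 bases before to 50 bases after a start site, were found for 9 of the 10 genes (13 windows), with *Kdm6b* the one left out. All 9 had a window with more CG sites than the median of 7 over the 32851 windows of the genome. The share of all genes with such a window was not computed, and a gene with several windows has more chances to reach it. *Tet2* had 57 and *Tet1* had 17. *Tet3* had 22. The window of *Ezh1* held 23 and that of *Ezh2* held 31. *Dnmt3b* had 30, *Kdm6a* had 21, the 3 windows of *Dnmt3a* had 46, 47 and 18, and the 3 windows of *Dnmt1* had 33, 12 and 2. Methylation of these sites was not measured here.

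The 4 windows of *Tet1*, *Tet2*, *Ezh1* and *Ezh2* are shown as examples of paralogs that differ in RNA level, as most paralog pairs described further on did. Whether the number of CG sites goes with RNA level was not tested. Each is read 5′ to 3′ on the minus strand, the strand of the gene, and capitals mark the CG sites. *Tet1* is at chr10:62887275-62887574, *Tet2* at chr3:133544341-133544640, *Ezh1* at chr11:101226414-101226713 and *Ezh2* at chr6:47594981-47595280.
Tet1: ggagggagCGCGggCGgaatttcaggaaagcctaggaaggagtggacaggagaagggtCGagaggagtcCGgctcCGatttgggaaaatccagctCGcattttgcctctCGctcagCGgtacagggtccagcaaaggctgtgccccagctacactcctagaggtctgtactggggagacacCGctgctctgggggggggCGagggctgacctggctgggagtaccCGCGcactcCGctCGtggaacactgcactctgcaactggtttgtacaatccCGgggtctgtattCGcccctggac
Tet2: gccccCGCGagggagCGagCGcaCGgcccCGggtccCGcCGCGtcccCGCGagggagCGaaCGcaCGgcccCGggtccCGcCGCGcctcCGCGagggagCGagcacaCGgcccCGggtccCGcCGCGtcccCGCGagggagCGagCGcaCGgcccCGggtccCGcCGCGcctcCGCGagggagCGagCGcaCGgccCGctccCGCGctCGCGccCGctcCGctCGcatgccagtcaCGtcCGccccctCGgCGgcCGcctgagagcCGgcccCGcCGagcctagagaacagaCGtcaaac
Ezh1: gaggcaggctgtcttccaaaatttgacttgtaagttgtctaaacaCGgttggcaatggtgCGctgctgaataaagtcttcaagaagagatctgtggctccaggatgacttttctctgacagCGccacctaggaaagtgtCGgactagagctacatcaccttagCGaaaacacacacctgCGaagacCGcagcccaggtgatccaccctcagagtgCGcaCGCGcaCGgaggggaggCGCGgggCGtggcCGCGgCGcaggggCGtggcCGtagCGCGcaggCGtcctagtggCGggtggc
Ezh2: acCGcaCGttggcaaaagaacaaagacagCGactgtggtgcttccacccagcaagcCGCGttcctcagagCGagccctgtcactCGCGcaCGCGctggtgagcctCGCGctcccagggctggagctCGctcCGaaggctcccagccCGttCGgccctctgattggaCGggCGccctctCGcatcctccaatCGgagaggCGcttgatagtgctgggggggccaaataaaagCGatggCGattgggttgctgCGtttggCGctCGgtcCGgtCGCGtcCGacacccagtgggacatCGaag
In the window of *Ezh2* the letters TTTGGCGC lie at positions 254 to 261, just past the start site. This and TTTCCCGC are motifs of the E2F factors, which switch on genes of the S phase. Either motif, on either strand, is in 1.56% of all windows of the genome. Of the 13 windows of the enzyme genes 2 held one, the other being a window of *Dnmt1* (chr9:20952574-20952873, minus strand, positions 284 to 291), while that of *Ezh1* held neither. A match is a description of letters and not of binding.

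The libraries had 7233071, 8732858, 5487147 and 3882803 counts in replicates 1 to 4. A count of 0 still allows a level of up to 3 counts. In CPM, the count scaled to the size of its library with edgeR's TMM factors, that was 0.416, 0.287, 0.670 and 0.753 in replicates 1 to 4. This covers counting error only. All 10 T cell markers, which include the CD3 chains *Cd3d*, *Cd3e* and *Cd3g*, had at least 10 counts in every library, and *Zbtb16*, which encodes the NKT cell factor PLZF, had 1518, 518, 2104 and 696 counts. The CD8 genes took at most 0.000149% of a library's counts. The libraries of one experiment differed in their content of other cells. Of 26 epithelial markers 21 were more than 1 log2 higher in replicate 4 than in 3 and in replicate 2 than in 1, as were 19.0% of all genes tested. Their summed share was 0.104%, 1.004%, 0.0216% and 3.02% of all counts from replicate 1 to 4. *Lyz1* alone had 2171, 3534, 47 and 84299 counts in replicates 1 to 4, so the share of replicate 4 rested largely on that gene. The T cell markers together took 0.388%, 0.157%, 0.469% and 0.208%, and 6 of the 10 were more than 1 log2 lower in replicates 4 and 2, as were 8.08% of all genes tested. The 8 plasma cell markers took 0.678%, 0.859%, 0.0275% and 0.0509%. Most of these counts in the second experiment were of *Jchain*, the joining chain of secreted antibodies (44022, 66662, 11 and 780 counts in replicates 1 to 4). None of the 8 passed edgeR's test between experiments at an adjusted p of 0.05, a test that called 0.0% of all genes. At an unadjusted p under 0.05 it had 4 of the 8, against 2.12% of all genes tested. *Mzb1* and *Tnfrsf17* of the plasma cell list were at 0 counts in replicate 3. Replicates 4 and 2 therefore held more epithelial RNA per T cell RNA than their partners, and replicates 1 and 2 had larger plasma cell shares than 3 and 4. Each value below has to be read beside both. In bulk RNA, fewer cells of a type and less RNA per cell cannot be told apart.

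**Figure D1:**
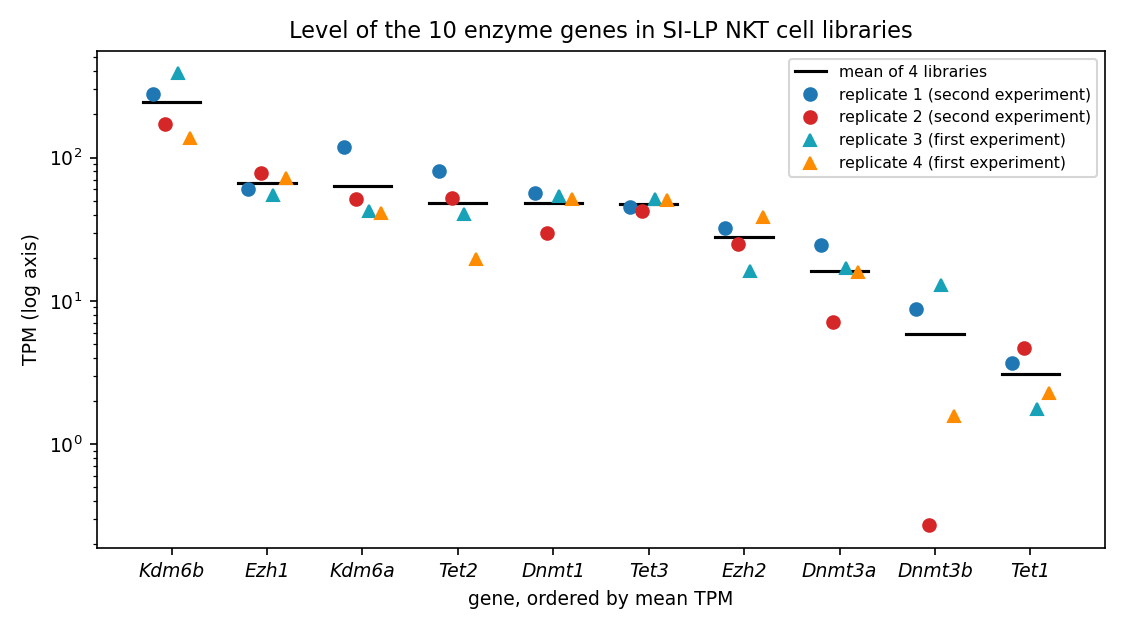
TPM of the 10 enzyme genes on a log axis, in order of their mean; circles are libraries of the second and triangles of the first experiment, and lines are means of 4 libraries. *Kdm6b* lies highest in every library, and *Dnmt3b* spreads over the widest range, from 0.272 to 12.8 TPM.

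Transcripts of all 10 enzymes were detected in all 4 libraries. *Kdm6b* was the highest in each of them and *Tet1* or *Dnmt3b* the lowest. Levels are compared between genes only per length, as TPM, in which counts are divided by gene length. In order of mean TPM (± SD, n = 4) *Kdm6b* with 243.8 ± 113.0 was followed by *Ezh1* with 66.3 ± 11.1, *Kdm6a* with 63.1 ± 36.8, *Tet2* with 48.3 ± 25.7, *Dnmt1* with 48.1 ± 12.3, *Tet3* with 47.5 ± 4.51, *Ezh2* with 28.0 ± 9.56, *Dnmt3a* with 16.1 ± 7.16, *Dnmt3b* with 5.86 ± 5.95 and *Tet1* with 3.10 ± 1.33. Among the 11689 genes that 2 or more libraries counted 10 times or more, *Kdm6b* stood at the 94.1th percentile and *Tet1* at the 16.8th. The place of *Tet1*, a long transcript, depends on the measure, with the 41.8th percentile by CPM and the 3.54th by TPM among genes that reached 10 counts in all libraries.

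Of the 9 steps between neighbours in this order, 4 were larger than the SD of the difference over the libraries. These were *Kdm6b* over *Ezh1*, *Tet3* over *Ezh2*, *Ezh2* over *Dnmt3a* and *Dnmt3a* over *Dnmt3b*. For 3 of them the sign held in all 4 libraries. *Ezh2* exceeded *Dnmt3a* in 3 of 4, by 0.81 ± 0.789 (SD) on the log2(TPM + 1) scale. The other 5 steps were not larger than their SD: those from *Ezh1* to *Kdm6a*, *Tet2*, *Dnmt1* and *Tet3* in turn, and that from *Dnmt3b* to *Tet1*. Members further apart can still differ, as *Ezh1* lay above *Tet3* in all 4 libraries. Within the 4 families, 7 of the 8 paralog differences had the same sign in all 4 libraries and exceeded their SD. The exception was *Tet2* against *Tet3*. An exact sign-flip permutation test over 4 libraries (two-sided, 16 sign patterns) cannot give a p below 0.125, which is the unadjusted p of those 7 differences, so their size and spread are given in place of a call.

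The methyltransferase family was led by *Dnmt1*, the maintenance enzyme (chr9:20907206-20959888, minus strand, gene body as deposited on GRCm38). Its TPM in replicates 1 to 4 was 56.5, 29.9, 54.2 and 51.8. Replicate 2 was low and the other 3 lay close together. *Dnmt3a* (chr12:3806980-3914443, plus strand), the main enzyme of new methylation in mature T cells, had 24.6, 7.11, 16.9 and 15.8 TPM. Replicate 2 was again the lowest, and every library was under the lowest *Dnmt1* value. *Dnmt1* exceeded *Dnmt3a* by 1.59 ± 0.316 (SD, n = 4) on the log2(TPM + 1) scale, 3.01-fold, in 4 of 4 libraries (exact permutation p = 0.125).

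*Dnmt3b* (chr2:153649449-153687730, plus strand), a methyltransferase best known from the early embryo, was the most variable of the 10 genes. Its counts were 91, 4, 101 and 11 in replicates 1 to 4, which are 8.75, 0.272, 12.8 and 1.58 TPM. Replicates 1 and 3 were high and replicates 2 and 4 low, the latter 2 being the libraries with more epithelial and less T cell RNA in each experiment. In replicate 2 its 0.383 CPM was just above the 0.287 CPM that 3 counts give. On the log2 CPM scale it differed by -2.90 between replicates 4 and 3 and by -4.23 between replicates 2 and 1, where the T cell markers had medians of -1.47 and -1.11. When the libraries were scaled to the T cell markers the differences were -1.32 and -3.34. The part of other cells in them was not tested. *Dnmt1* exceeded *Dnmt3b* by 3.38 ± 1.29 and *Dnmt3a* exceeded it by 1.79 ± 1.12 on the log2(TPM + 1) scale, each in 4 of 4 libraries. With a pseudocount of 5 TPM in place of 1 these differences were 2.43 and 1.07, and with 0.1 TPM they were 4.01 and 2.35. Of the family's summed TPM, *Dnmt1* made up 70.6% ± 8.30 (SD, n = 4), *Dnmt3a* 22.4% ± 3.70 and *Dnmt3b* 7.01% ± 6.77. The share of *Dnmt3b* rested on replicates 1 and 3, and was 4.25% without replicate 3 and 9.10% without replicate 2.

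In the TET family, *Tet2* and *Tet3* had like mean levels, and *Tet1* was far lower in every library. *Tet2* (chr3:133463677-133544390, minus strand), the member without a CXXC domain in its protein, had 81.2, 51.9, 40.4 and 19.6 TPM in replicates 1 to 4. Both libraries of the second experiment were above both of the first. *Tet3* (chr6:83362374-83456392, minus strand) had 45.05, 42.4, 51.7 and 50.9 TPM. Here the second experiment was below the first, within a narrow range. The TPM ratio of *Tet2* to *Tet3* was thus 1.80 and 1.22 in the second experiment (replicates 1 and 2), against 0.782 and 0.385 in the first (replicates 3 and 4). The mean difference of -0.14 ± 0.931 on the log2(TPM + 1) scale (*Tet2* minus *Tet3*, exact permutation p = 0.75) had each sign in 2 libraries, and it became 0.26 without replicate 4. *Tet2* was the higher one in both libraries of the second experiment and *Tet3* in both of the first. With 2 libraries each this was not tested on the ratio, and neither gene passed edgeR's test between experiments.

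*Tet1* (chr10:62804570-62887324, minus strand), which is known from embryonic stem cells, had 127, 228, 46 and 53 counts, or 3.68, 4.68, 1.76 and 2.29 TPM. All 4 values were low, and those of the second experiment were the higher ones. *Tet2* exceeded *Tet1* by 3.48 ± 0.678 and *Tet3* exceeded it by 3.62 ± 0.607 on the log2(TPM + 1) scale (11.1-fold and 12.3-fold), in 4 of 4 libraries each. These sizes depend on the pseudocount, and were 2.59 and 2.71 with 5 TPM and 3.84 and 3.99 with 0.1 TPM in its place. In shares of summed TPM, the family was made up of 46.2% ± 15.1 *Tet2*, 50.6% ± 15.4 *Tet3* and 3.15% ± 1.19 *Tet1* (SD, n = 4). The share of *Tet2* was 62.5%, 52.4%, 43.1% and 26.9% in replicates 1 to 4.

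**Figure D2:**
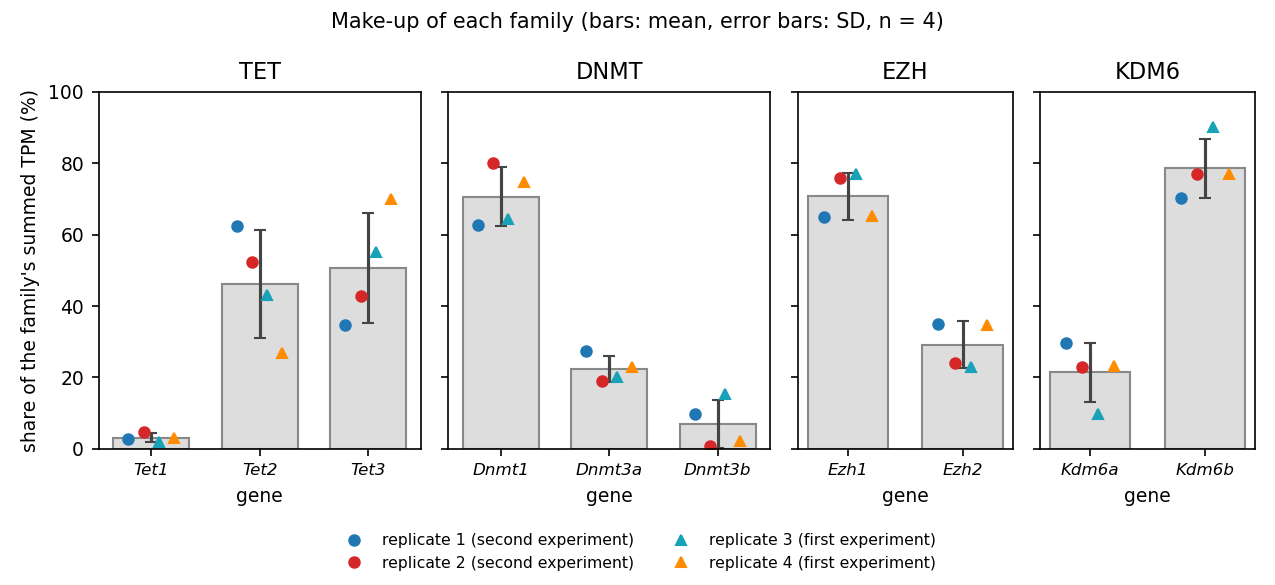
Share of each member in the summed TPM of its family, in percent; grey bars are means with SD of 4 libraries, circles are libraries of the second and triangles of the first experiment. *Dnmt1*, *Ezh1* and *Kdm6b* hold the largest share of their family in every library, while *Tet2* leads in the second and *Tet3* in the first experiment.

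Of the alternative catalytic subunits of PRC2, *Ezh1* exceeded *Ezh2* in every library. *Ezh1* (chr11:101191115-101226463, minus strand) is the subunit typical of resting cells, and *Ezh2* (chr6:47530274-47595030, minus strand) that of dividing cells, where E2F factors drive it. *Ezh1* had 60.04, 78.6, 54.4 and 72.2 TPM in replicates 1 to 4. *Ezh2* had 32.3, 25.0, 16.3 and 38.4 TPM. The ranges of the genes did not overlap, and the ratio of *Ezh1* to *Ezh2* was 1.86, 3.15, 3.35 and 1.88. The difference was 1.27 ± 0.443 on the log2(TPM + 1) scale (2.40-fold, exact permutation p = 0.125), so that *Ezh1* made up 70.8% ± 6.54 of the family's TPM.

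Under TMM scaling *Ezh1* was also the steadiest of the 10 genes, whereas with scaling to the T cell markers it differed by 2.04 between replicates 4 and 3 and by 1.61 between replicates 2 and 1, and *Kdm6b* by 0.14 and 0.52. The SD of its log2 CPM over the 4 libraries was 0.238, lower than that of all but 2.47% of the genes tested, whose median SD was 1.01. *Tet3* followed with 0.311 (5.20th percentile), and *Dnmt3b* was at the other end with 2.26 (84.2th percentile). The remaining 7 lay between 0.465 (*Tet1*) and 0.819 (*Dnmt3a*). Among genes at or above the median CPM the median SD was 0.705, and against it *Kdm6b* (0.717), *Tet2* (0.730) and *Dnmt3a* were more variable.

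*Ezh2* was set beside the cell cycle genes, whose direction between libraries it shared in the first experiment and not in the second. Of 20 cell cycle genes, 14 were more than 1 log2 higher in replicate 4 than in 3 and in replicate 2 than in 1. The share of all genes tested was 19.0%. *Mki67*, which encodes the proliferation marker Ki-67, had 421, 4056, 131 and 1024 counts in replicates 1 to 4, and *Tyms*, which makes thymidylate, had 0, 557, 26 and 144. On the log2 CPM scale *Ezh2* differed by 1.22 between replicates 4 and 3 and by -0.40 between replicates 2 and 1 (2.83 and 0.84 with scaling to the T cell markers, where the medians of all genes were 1.68 and 1.36). *Dnmt1*, another gene of dividing cells, differed by -0.07 and -0.95 (1.57 and 0.30 with that scaling). Not every cycle gene differed in this way: *Pcna*, the sliding clamp of replication, had 331.9, 343.3, 317.2 and 244.0 TPM, and *Birc5*, the mitotic survivin, had 216, 65, 1 and 45 counts. The 14 cycle genes were higher in the libraries with more epithelial RNA, and which cells they came from was not tested.

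Among the demethylases *Kdm6b* (chr11:69398518-69416194, minus strand), which encodes JMJD3, an enzyme induced by activating signals, had 279.4, 171.8, 387.0 and 137.1 TPM in replicates 1 to 4. Replicates 1 and 3 were the high ones, as for *Dnmt3b*. *Kdm6a* (chrX:18162575-18279936, plus strand), which encodes the X-linked UTX, had 117.9, 51.3, 42.2 and 41.1 TPM. Replicate 1 stood apart above the other 3. *Kdm6b* exceeded *Kdm6a* by 1.96 ± 0.836 on the log2(TPM + 1) scale (3.89-fold, 4 of 4 libraries, exact permutation p = 0.125) and made up 78.6% ± 8.32 of the family's TPM. The ratio was 2.37, 3.35, 9.17 and 3.33, so replicate 3 had the largest excess. In summed TPM the KDM6 family had 306.9 ± 124.8, the TET family 98.9 ± 23.6, the EZH family 94.3 ± 17.4 and the DNMT family 70.0 ± 23.5 (SD, n = 4).

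*Kdm6a* has a paralog on the Y chromosome, *Uty*, whose enzyme activity is weak, and short reads that fit both genes leave their counts uncertain. *Uty* had 712, 731, 321 and 129 counts, with a mean of 36.6 ± 17.1 TPM (SD, n = 4), and the TPM ratio of *Kdm6a* to *Uty* was 2.09, 1.25, 1.26 and 2.69. The other Y-linked genes *Ddx3y*, a helicase, with 1657, 1036, 635 and 347 counts, *Eif2s3y*, a translation initiation factor, with 470, 422, 284 and 97 and *Kdm5d*, a demethylase of H3K4, with 378, 1903, 403 and 264 were counted in every library. *Xist*, the RNA that silences an X chromosome, had 29, 31, 0 and 9 counts. The libraries thus all held RNA of male cells, and the labels do not give the sex of each sample.

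The experiments were compared by edgeR's quasi-likelihood test over all 11689 genes, which measures replicate and batch error. It called none of the 10 enzyme genes and 0.0% of all genes at an adjusted p of 0.05. At an unadjusted p under 0.05 there were 248 genes (2.12%), none of them an enzyme gene, and DESeq2 called 41 genes, again with 0 of the 10. The lowest unadjusted p was that of *Tet2* (0.223 from edgeR, adjusted p = 0.9997), which was 0.85 ± 0.630 (SE) higher in the second experiment on the log2 scale. *Dnmt3b* differed most, by -0.96 with an SE of 1.96. The enzyme genes had 3 higher and 7 lower values in the second experiment, with a median absolute difference of 0.561, where that of all genes tested was 0.673. The CPM of the experiments did not overlap for 4 of the 10 (*Tet1* and *Tet2* higher, *Tet3* and *Dnmt1* lower in the second), and for 29.1% of all genes tested. With SEs of 0.522 to 1.96 and 2 libraries per experiment, a p that misses the threshold does not show that the levels were alike.

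**Figure D3:**
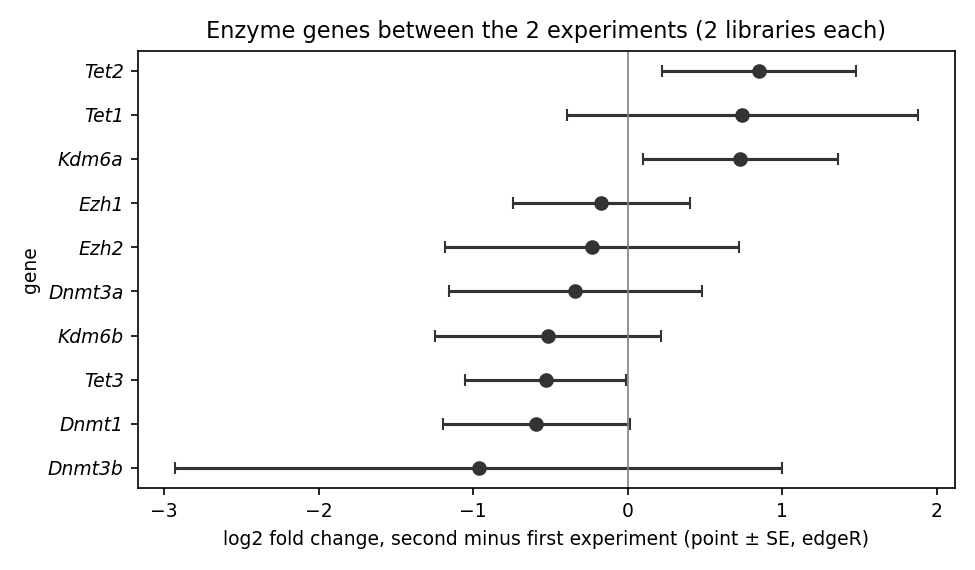
Log2 fold change of the 10 enzyme genes between the experiments (second minus first) from edgeR, with an SE derived from the F statistic of its test, 2 libraries each. The values run from -0.96 for *Dnmt3b* to 0.85 for *Tet2*, and no adjusted p passed the threshold.

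Within the experiments, replicate 4 was set against 3 and replicate 2 against 1 on the log2 CPM scale. None of the 10 was more than 1 log2 higher in both pairs, as 19.0% of all genes were. *Dnmt3b* was the 1 gene more than 1 log2 lower in both, as were 8.08% of all genes. *Tet1*, *Tet3*, *Dnmt1* and *Ezh1* stayed within 1 log2 in both, a share of 4 in 10 where all genes had 26.3%. *Kdm6b* differed by -1.51 and -0.74 and *Tet2* by -1.05 and -0.68, *Kdm6a* by -0.05 and -1.23 and *Dnmt3a* by -0.11 and -1.81. *Ezh1* differed by 0.40 and 0.35, *Tet1* by 0.36 and 0.31 and *Tet3* by -0.03 and -0.12. The medians of the 10 were -0.06 and -0.71, those of all genes tested 0.08 and 0.13. Scaling to the T cell markers moved the median of all genes to 1.68 and 1.36 and that of the enzyme genes to 1.58 and 0.55, so that the negative differences of *Tet2*, *Tet3*, *Dnmt1*, *Kdm6a* and *Kdm6b* became positive in both pairs, as that shift of all genes would make them, and stayed below the medians of all genes. Those of *Dnmt3b* stayed negative. With library size alone *Tet3* differed by 0.30 and 0.14, so its sign is not settled. The part of other cells in these differences was not tested.

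**Figure D4:**
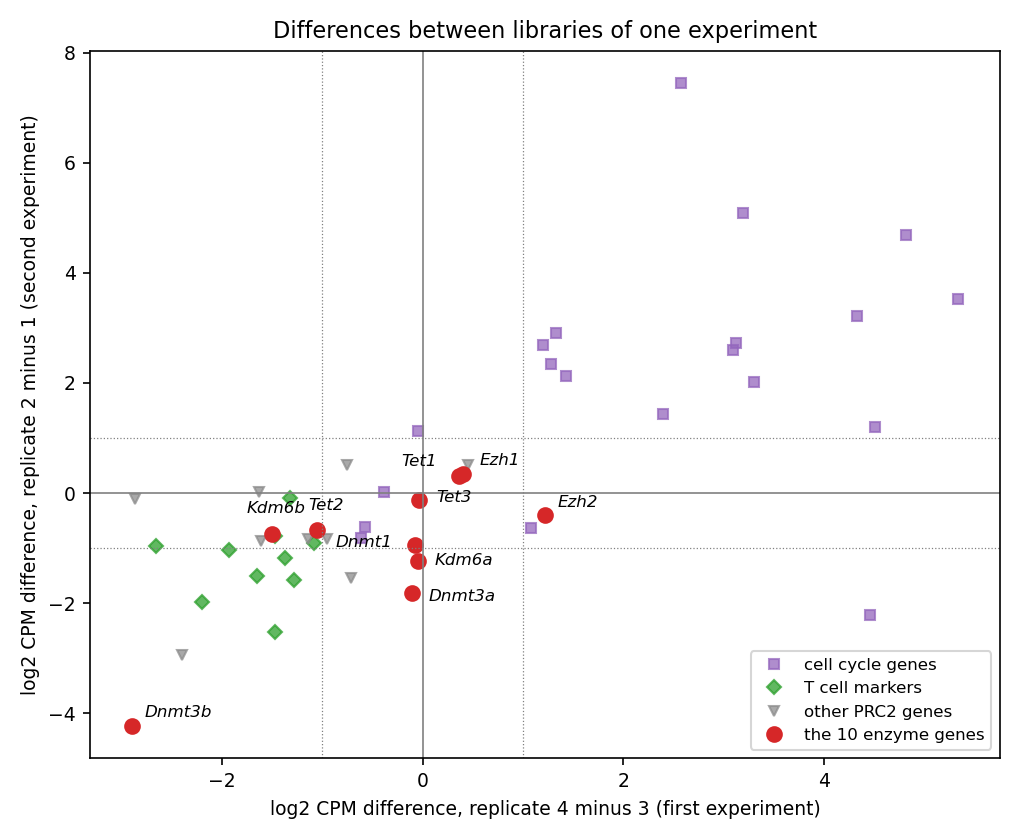
Log2 CPM difference between the libraries of the first experiment (horizontal axis, replicate 4 minus 3) and of the second (vertical axis, replicate 2 minus 1) for the 10 enzyme genes (red), the cell cycle genes, the T cell markers and the other PRC2 genes; dotted lines mark 1 log2. Most cell cycle genes lie at the upper right and the T cell markers at the lower left, with *Dnmt3b* at the far lower left (-2.90 and -4.23); scaled to the T cell markers, which shifts the median of all genes to 1.68 and 1.36, it lies at -1.32 and -3.34, and *Tet2*, *Tet3*, *Dnmt1*, *Kdm6a* and *Kdm6b* turn positive but stay below those medians.

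The partners of the enzymes were read from lists of genes. None of their genes passed edgeR's test between experiments, a test that called 0.0% of all genes, so this does not show that they were alike. All 9 other PRC2 genes passed the filter on low counts, and 8 had at least 10 counts in every library. The histone-binding subunit *Rbbp7* had 144.2, 211.4, 120.1 and 165.4 TPM and was the highest. *Eed*, the core subunit that reads the mark, had 106.1, 110.6, 99.1 and 31.96 TPM, with replicate 4 low. *Mtf2* and *Phf19* are accessory subunits that bring PRC2 to DNA. *Mtf2* had 37.7, 35.7, 31.6 and 4.25 TPM, with replicate 4 again low. *Phf19* had 4.00, 0.315, 13.1 and 2.32 TPM, and was the 1 PRC2 partner more than 1 log2 lower in both replicates 4 and 2 (differences of -2.40 and -2.94), the pattern seen for *Dnmt3b*. Of these genes 3 of 9 stayed within 1 log2 in both pairs, 1 was lower in both and 0 were higher in both. The shares of all genes tested were 26.3%, 8.08% and 19.0%.

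**Figure D5:**
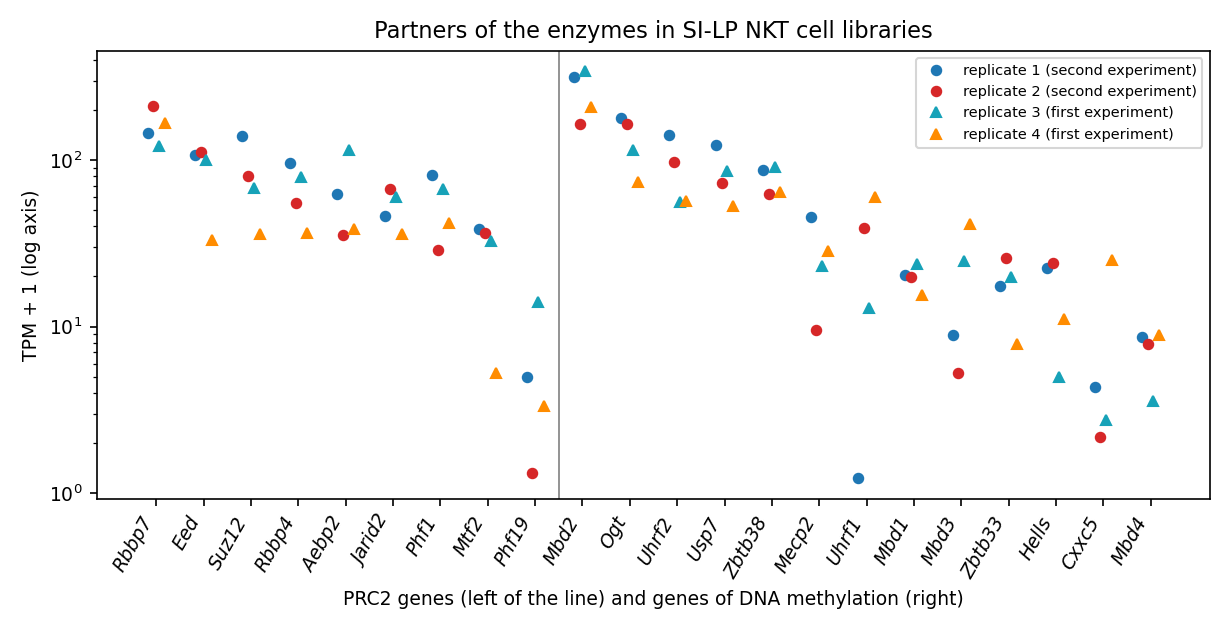
TPM + 1 on a log axis of the PRC2 partners and of the genes of DNA methylation that passed the filter on low counts, each list in order of its genes' mean percentile; circles are libraries of the second and triangles of the first experiment. *Mtf2* is low in replicate 4, *Uhrf1* near 0 in replicate 1, and *Cxxc5* high in replicate 4.

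Of 17 genes that act with the DNA methylation enzymes, 16 were in the table and 13 passed the filter on low counts. *Mbd2*, a reader of methylated DNA, had 315.0, 162.6, 340.6 and 206.7 TPM. *Ogt*, the sugar transferase that binds TET proteins, had 178.5, 163.2, 114.6 and 73.2 TPM. Both exceeded every DNMT and TET gene in mean level. *Uhrf1*, which brings Dnmt1 to newly copied DNA, had 2, 472, 80 and 347 counts. It was the 1 of the 13 genes more than 1 log2 higher in both replicates 4 and 2 (by 2.27 and 6.29), where all genes tested had 19.0%. *Dnmt1*, its partner, was not (-0.07 and -0.95). *Cxxc5*, a CXXC protein that binds unmethylated CG sites, had 20, 10, 8 and 97 counts. *Dnmt3l*, the cofactor of new methylation in germ cells, was at 0 counts in all libraries, which allows up to 0.753 CPM in the shallowest. *Tdg*, the glycosylase that removes oxidised methylcytosine, had 0, 0, 0 and 1 counts and *Cxxc4* had 0, 0, 0 and 5. These genes were looked at because their counts were so low. Whether reads that fit several places of the genome lowered these counts was not tested.

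PRC1, the complex that reads the PRC2 mark and ubiquitinates histone H2A, was measured by 19 genes. All 19 passed the filter on low counts. The mark reader *Cbx7* had 86.6, 42.9, 34.5 and 91.0 TPM and *Kdm2b*, which binds unmethylated CG sites and recruits PRC1 there, had 102.7, 45.8, 85.8 and 15.0 TPM. The readers *Cbx8*, with 6, 4, 59 and 22 counts, and *Cbx6*, with 45, 20, 62 and 148 counts, had the largest range over the libraries. In both replicates 4 and 2 there were 0 genes of the list higher and 4 lower by over 1 log2, and 5 of the 19 stayed within 1 log2, where the shares of all genes tested were 19.0%, 8.08% and 26.3%.

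Under TMM scaling the 12 other genes that modify H3K27 or H3K4 were the steadiest of the lists of chromatin genes, with 10 of 12 within 1 log2 in both pairs where all genes had 26.3%. Such counts depend on that scaling: with the T cell markers in its place the median of all genes moved to 1.68 and 1.36. *Crebbp*, an acetyltransferase of H3K27, had 165.5, 135.0, 153.9 and 108.1 TPM. *Dpy30* and *Wdr5*, subunits of the complexes that methylate H3K4, were the 2 that did not. *Dpy30* had 134.8, 165.9, 30.7 and 101.5 TPM, and *Wdr5* had 18.1, 2.84, 23.6 and 15.0.

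For the member of each family with the highest mean TPM, which for the TET family was *Tet2* by a margin over *Tet3* that is not resolved, the genes with the most alike pattern over the 4 libraries were sought by the root mean square difference of centred log2 CPM. For *Kdm6b* these were *Ifngr1* (0.0409), which encodes a chain of the IFN-γ receptor, *Slamf1* (0.0454), a SLAM family receptor, and *Wtap* (0.0537), a subunit of the RNA methylation complex, with 95 genes within 0.2. For *Ezh1* they were *Mrpl32* (0.0238), *Dap3* and *Washc5*, with 176 genes within 0.2. *Tet2* had *Ccpg1* (0.0265), *Ube2b* and *Nkap* nearest (120 genes within 0.2), and *Dnmt1* had *Srebf2* (0.0385) nearest (97 genes within 0.2). With 4 libraries many genes lie as close, and none of the other enzyme genes was within 0.2 of any of these 4.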

How the data were processed

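The 4 libraries of SI-LP NKT cells were prepared from total RNA, per the labels with the Nugen Ovation ultralow kit and paired-end reads, and the authors deposited raw counts of read pairs per gene. The file header names featureCounts 1.6.4, primary alignments, exons of the mm10 RefSeq annotation and no strand option. The study's methods name HISAT2 and GRCm39, while 99.65% of the matched genes lie at their GRCm38 position in the table, so coordinates are given on GRCm38. The 10 enzyme genes share no exon with another gene on either strand. Of 6 library columns, 2 match no sample label and were not used.

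CPM was computed with TMM factors (edgeR 4.0.16, R 4.3.3) and TPM from the exonic lengths the authors deposited. A gene entered the test when 2 libraries or more had 10 counts or more for it. The experiments were compared with the quasi-likelihood test of edgeR, with p-values adjusted after Benjamini-Hochberg over all tested genes. Each SE was derived from the fold change and the F statistic of that test, so it is not evidence separate from the p-value. Log2 CPM used a prior count of 2 and log2 TPM a pseudocount of 1. DESeq2 1.42.0, other scalings, filters and pseudocounts and leaving out each library were the alternatives. No source says whether the samples were single mice or pools, so p-values measure only the spread between these samples.

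All 10 members are described. From each pathway list, and from the cell cycle and sex-linked lists, the 2 genes with the highest mean TPM and the 2 with the largest range over libraries were named, with Mki67, Xist and Uty. For the highest member of each family the 3 most alike genes were sought, and 1 result of that search is not reported here. The members and lists were chosen with earlier results of these data known.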

Additional observations from a re-analysis of the deposited data

Results flagged for a closer look

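In 3 of 49 results examined, 1 library lay so far from the other 3 that its gap to the nearest of them took up nearly the whole range, where chance would give 2.45. For *Kdm6a* replicate 1 was high (232.9 CPM against 98.6 to 101.8), and the gap was 0.976 of the range. For *Mtf2* replicate 4 was low, and the gap took 0.887 of the range. For *Cxxc5* replicate 4 was high, and its gap was 0.922. With a chance of about 1 in 20 for each group of libraries, this number of such genes is close to what chance gives.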

How the results depend on the processing

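The number of genes called between experiments was 0 with edgeR, 41 with DESeq2, 60 in edgeR without a filter on low counts, and 0 to 7 when 1 library was left out (7 without replicate 3, 6 without replicate 4), where the lone library of an experiment is assumed to vary like the others. None of the 10 enzyme genes was called under any of these. The mean CPM of *Ezh1* moved to 123.6 with *Rn45s* left out and 122.9 with scaling to the T cell markers. Without length correction the family shares of *Dnmt3a*, *Ezh1* and *Ezh2* moved to 31.8%, 79.2% and 20.8%, and the other 67 shares computed moved by less than 1 SD. *Tet2* minus *Tet3* turned to 0.26 without replicate 4 (from -0.47 to 0.26 with 1 library left out) and to 0.24 with replicates 1 and 3 alone, an alternative chosen after seeing the data. The median difference of the enzyme genes became 1.58 (replicate 4 minus 3) and 0.55 (2 minus 1) under scaling to the T cell markers. Of 59 percentiles of single genes 14 moved by more than 1 SD, and of 80 single differences 21. No pairing of samples between groups was possible because there is a single group, with no other to pair its replicates with. Only the paralog differences were paired, within each library. Depth limits *Dnmt3b* in replicate 2, with 4 counts.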
